A study of Mus musculus with 8 samples.

Results

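The cyclin D genes and the proteins around them were examined for changes in chromatin accessibility after removal of the transcription factor EBF1. The 8 genes were the D cyclins Ccnd1, Ccnd2 and Ccnd3, their kinases Cdk4 and Cdk6, and the kinase inhibitors Cdkn1a, Cdkn1b and Cdkn2c, out of 21896 protein-coding genes. A region of either deposited table was assigned to a gene when that gene had the nearest protein-coding span in RefSeq (GRCm38.p6) and the region's centre lay within 100 kb of it. This gave 65 of 54239 regions in one cell line and 68 of 55193 in the other. Joined by overlap they made 77 distinct regions, of which 56 were in both tables and 21 in 1.

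The cells were mouse pro-B cells, kept growing by transformation with A-MuLV (the Abelson leukaemia virus), in which the endogenous EBF1 had been replaced by an exogenous, modified gene. There were 4 groups of 2 libraries, 8 libraries in all, described by the series as biological replicates. EBF1-dTAG_C cells received 0.5 uM dTAG-13 or DMSO for 6 h, and EBF1-dTAG_N cells received the same pair of treatments. dTAG-13 is a small molecule that brings a protein carrying a dTAG degron to a ubiquitin ligase for destruction, and DMSO is its solvent. All 4 groups, the DMSO controls included, thus carry the replaced EBF1 and the viral transformation, and the titles call the controls 0 h although the treatment label gives them DMSO. EBF1 protein itself was not analysed here.

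D cyclins bind CDK4 and CDK6 in G1, and the active complexes phosphorylate the retinoblastoma protein, which frees E2F factors to switch on genes of S phase. In B-lineage precursors cyclin D2 and cyclin D3 link growth signals such as interleukin-7 to division, and cyclin D3 is known to be needed for the expansion of pre-B cells. The Cip/Kip inhibitors p21 (Cdkn1a) and p27 (Cdkn1b) act on several cyclin-kinase complexes, whereas the INK4 protein p18 (Cdkn2c) binds CDK4 and CDK6 directly. The Abelson kinase of the transforming virus drives these cells to divide without interleukin-7.

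RefSeq (GRCm38.p6) promoter windows were found for 6 of the 8 genes, the other two being Ccnd1 and Ccnd2, and they gave 9 annotated starts. The 250 bases before the start are shown for both Ccnd3 starts, because the regions that changed at this gene lie between and beyond them, and for Cdk4, whose single region covers its start. All 3 windows are on the + strand. Capitals mark CCCNNGGG, the inner letters of the palindrome bound by EBF1, at the second Ccnd3 start, and CACGTG, the E-box bound by the MYC family, at Cdk4. The first Ccnd3 window holds neither.
Ccnd3 first start, chr17:47504801-47505050: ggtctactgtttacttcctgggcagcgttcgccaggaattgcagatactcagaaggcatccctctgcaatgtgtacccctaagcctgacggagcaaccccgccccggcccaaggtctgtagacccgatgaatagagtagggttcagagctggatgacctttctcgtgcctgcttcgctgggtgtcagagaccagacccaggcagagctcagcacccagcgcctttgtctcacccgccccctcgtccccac
Ccnd3 second start, chr17:47593217-47593466: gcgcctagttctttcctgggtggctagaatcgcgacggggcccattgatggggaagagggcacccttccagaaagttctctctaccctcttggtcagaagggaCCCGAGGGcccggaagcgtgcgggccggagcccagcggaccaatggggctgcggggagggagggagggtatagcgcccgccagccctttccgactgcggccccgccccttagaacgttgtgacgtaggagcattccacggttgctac
Cdk4 start, chr10:127063285-127063534: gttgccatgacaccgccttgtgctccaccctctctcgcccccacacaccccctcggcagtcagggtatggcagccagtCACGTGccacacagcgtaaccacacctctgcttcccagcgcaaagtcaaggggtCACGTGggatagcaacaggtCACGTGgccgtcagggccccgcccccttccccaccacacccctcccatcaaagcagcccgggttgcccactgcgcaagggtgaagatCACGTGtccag

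The longer EBF1 form, the same letters with a T before and an A after them, searched on both strands, was in 0 of the 9 windows and in 0.779% of 32851 promoter windows of the same length. CCCNNGGG alone was in 1 of the 9 windows, 147 bases before the second Ccnd3 start, and in 11.8% of all windows. CACGTG was in 2 of the 9, namely Cdk6 and Cdk4, and in 6.02% of all windows. The Cdk4 window holds it 4 times, at 172, 118, 98 and 11 bases before the start. A match is a run of letters and not a site of binding, and none of the regions that fell overlapped these windows.

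In EBF1-dTAG_C, 7 of the 65 regions fell (10.8%) and 0 rose after dTAG-13 at an adjusted p under 0.05 in the authors' deposited table of edgeR's test. Of all regions of that table, 6.62% fell and 0.308% rose. At an unadjusted p under 0.05 the members counted 8 fallen (12.3%) and 2 risen regions (3.08%), against 11.6% and 5.2% of all regions. The median log2 fold change, dTAG-13 over DMSO, was 0.11 over the 65 regions, against 0.09 over the whole table. In such bulk libraries fewer cells with an open region and less opening in each cell cannot be told apart.

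In EBF1-dTAG_N, 10 of the 68 regions fell (14.7%) and 17 rose (25.0%) in the authors' deposited table, against 18.5% and 18.8% of all its regions. The median log2 fold change was 0.23 over the 68 regions, against 0.17 over the whole table. At an unadjusted p under 0.05 there were 11 fallen (16.2%) and 26 risen members (38.2%), against 20.2% and 25.2% of all regions. With folds centred on the median of the table the split became 12 fallen and 9 risen regions, against 20.8% and 7.98% of all regions. F and p of each region imply 11.2 denominator degrees of freedom for the EBF1-dTAG_C test and 110386 for the EBF1-dTAG_N test. The spread in EBF1-dTAG_N was therefore pooled over regions, and its many more calls and far smaller p-values cannot be compared with those of EBF1-dTAG_C.

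By role, the D cyclins held 5 of the 7 falls in EBF1-dTAG_C, over 33 regions (15.2%), and 4 of these were at Ccnd3. The kinases held 1 over 17 (5.88%) and the inhibitors 1 over 15 (6.67%), against 6.62% of all regions. In EBF1-dTAG_N the D cyclins held 7 falls and 9 rises over 35 regions, the kinases 2 falls and 4 rises over 20, and the inhibitors 1 fall and 4 rises over 13. Of all EBF1-dTAG_N regions 18.5% fell and 18.8% rose. These shares, and 6.62% fallen and 0.308% risen in EBF1-dTAG_C, are the background for the counts per gene given below. The falls lay at Ccnd1, Ccnd3, Cdk6 and Cdkn1a. At Ccnd2, Cdk4, Cdkn1b and Cdkn2c no region passed as fallen in either line. Of the EBF1-dTAG_C table these genes held only 11, 1, 4 and 4 regions, where 6.62% of all regions fell. Of the EBF1-dTAG_N table they held 10, 1, 4 and 2, where 18.5% of all regions fell. Whether they fell less often than other regions was not tested, and so few regions per gene cannot show it. Of the 56 regions in both tables, 7 fell in both lines (12.5%), 3 fell in EBF1-dTAG_N but did not pass as fallen in EBF1-dTAG_C (5.36%), and 16 rose in EBF1-dTAG_N but did not pass as risen in EBF1-dTAG_C (28.6%). Over all 42801 such pairs the shares were 7.98%, 8.89% and 21.6%. Of the falls, 5 of 7 for EBF1-dTAG_C and 8 of 10 for EBF1-dTAG_N lay inside the gene span, against 60.2% and 60.3% of all fallen regions that were assigned to a gene.

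**Figure D1:**
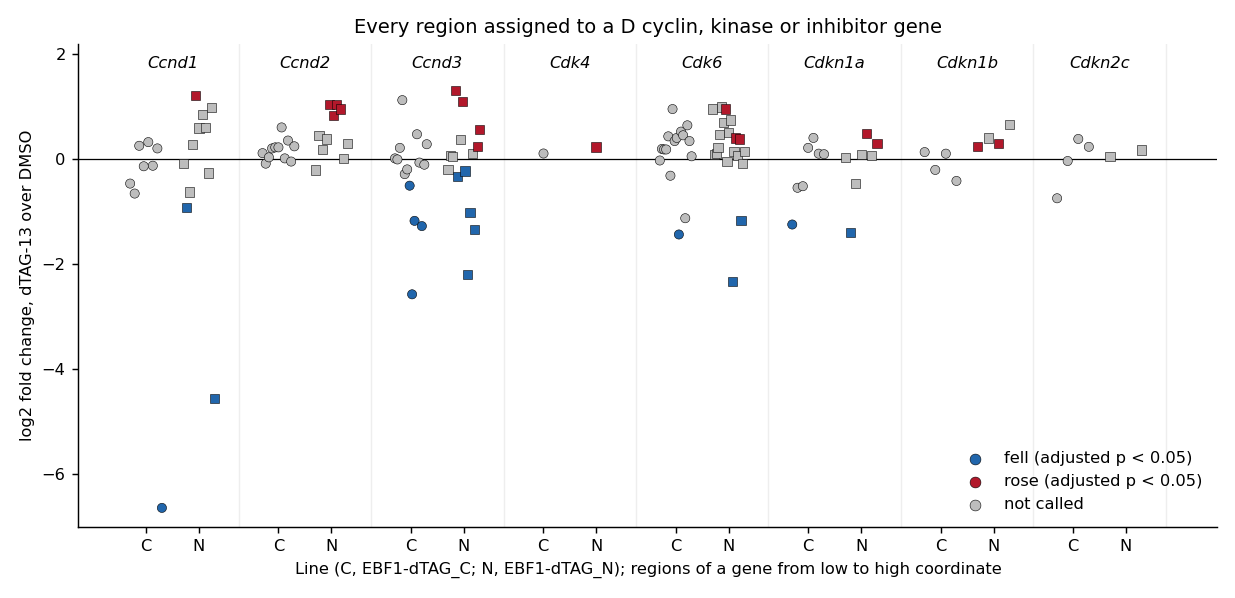
Every region of the 8 genes, by gene, with the deposited log2 fold change of dTAG-13 over DMSO on the vertical axis, as circles for EBF1-dTAG_C and squares for EBF1-dTAG_N. Blue regions fell, red rose and grey were not called. The lowest points are the distal Ccnd1 region at -6.64 and -4.55, and the other falls down to -1 or below are at Ccnd3, Cdk6 and Cdkn1a.

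The values given for single libraries are the authors' fold enrichments, the height of a peak's summit relative to background around it. They describe a peak within its own list, because the lists were made one by one and were of different lengths (34202 to 39721 peaks with dTAG-13, 40166 to 42139 with DMSO). They also come from the same libraries as the deposited folds. At a region named for its call they are therefore a description and no second test. How often other regions separate the treatments in this way was not counted. Reads per library were not analysed here. Among the 65 EBF1-dTAG_C regions, 46 and 52 had a peak in the dTAG-13 lists, against 53 and 55 in the DMSO lists. Over all regions of that table the shares were 62.3% and 62.2% with dTAG-13, against 73.5% and 76.3% with DMSO. Among the 68 EBF1-dTAG_N regions the numbers were 47 and 55 with dTAG-13, against 50 and 50 with DMSO, where all regions had 63.4% and 70.2% with dTAG-13, against 74.5% and 71.9% with DMSO.

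Ccnd3, which encodes the cyclin of expanding pre-B cells, had 14 regions in each line, of which 4 fell and 0 rose in EBF1-dTAG_C and 5 fell and 4 rose in EBF1-dTAG_N in the authors' deposited tables. The same 4 regions fell in both lines, all inside the gene span on chromosome 17. They lie 37.2, 48.1, 51.9 and 89.4 kb past the first annotated start, and the last lies 1.0 kb past the second start. The RefSeq table used here gives spans without exons, so exon and intron could not be assigned. Their GRCm38 coordinates and values are given for EBF1-dTAG_C and then EBF1-dTAG_N.

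The deepest fall at Ccnd3 was 48.1 kb past the first start, at chr17:47552985-47553371. Its peak had a fold enrichment of 7.80 and 5.77 in the dTAG-13 libraries of EBF1-dTAG_C, against 19.1 and 16.8 in the DMSO libraries. In EBF1-dTAG_N it had 6.83 and 8.91 with dTAG-13, against 16.4 and 14.8 with DMSO. Both dTAG-13 libraries were below both DMSO libraries in each line, with no overlap. In the authors' deposited tables the region had a log2 fold change of -2.57 (adjusted p = 1.03e-05) in EBF1-dTAG_C and -2.20 (adjusted p = 9.52e-75) in EBF1-dTAG_N, which is 5.95-fold and 4.61-fold lower.

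The next region, 51.9 kb past the start at chr17:47556642-47557247, was wider and more accessible. It fell by 1.17 on the log2 scale (adjusted p = 0.000643) in EBF1-dTAG_C and by 1.01 (adjusted p = 3.07e-53) in EBF1-dTAG_N in the authors' deposited tables. Its summits did not separate the treatments. They stood at 13.6 and 15.6 with dTAG-13, against 15.1 and 12.7 with DMSO, in EBF1-dTAG_C. They stood at 15.0 and 13 with dTAG-13, against 13.5 and 14.2 with DMSO, in EBF1-dTAG_N. By rank within the lists, its peaks did separate the treatments. For EBF1-dTAG_C they stood within the top 23.5% and 17.7% under dTAG-13, against 4.75% and 7.11% under DMSO. The EBF1-dTAG_N ranks were 14.3% and 18.5% under dTAG-13, against 4.74% and 2.35% under DMSO. Here the counts over the region and the list ranks went down, while the summit enrichment overlapped. The reason was not tested.

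The region 1.0 kb past the second start, at chr17:47594190-47594724, had a peak in 1 of the 2 dTAG-13 lists of EBF1-dTAG_C, with a fold enrichment of 3.81, against 6.40 and 5.94 with DMSO. In EBF1-dTAG_N it had a peak in neither dTAG-13 list, against 7.78 and 7.35 with DMSO. It fell by 1.27 (adjusted p = 0.00507) in EBF1-dTAG_C and by 1.34 (adjusted p = 1.26e-49) in EBF1-dTAG_N on the log2 scale of the authors' deposited tables. Bysl, a gene of ribosome assembly, begins or ends 4874 bp away.

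The region 37.2 kb past the first start, at chr17:47542015-47542544, was within the top 3.32% of peaks in every one of the 8 lists and had the smallest of the 4 falls. Its peak had 25.2 and 27.9 with dTAG-13, against 31.2 and 30.4 with DMSO, in EBF1-dTAG_C. It had 28.7 and 29.8 with dTAG-13, against 30.9 and 31.7 with DMSO, in EBF1-dTAG_N. The dTAG-13 libraries lay below the DMSO libraries in both lines, by a small margin in EBF1-dTAG_N. The authors' deposited tables give it a log2 fold change of -0.50 (adjusted p = 0.0277) in EBF1-dTAG_C and -0.22 (adjusted p = 0.000699) in EBF1-dTAG_N.

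Neither annotated Ccnd3 start passed the deposited test. The region at the first start had a log2 fold change of 0.02 (adjusted p = 0.973) in EBF1-dTAG_C and -0.19 (adjusted p = 0.128) in EBF1-dTAG_N in the authors' deposited tables. After centring on the table median the EBF1-dTAG_N value passed as a fall (adjusted p = 0.00219). The region at the second start, where the CCCNNGGG match stands, had -0.06 (adjusted p = 0.878) and 0.11 (adjusted p = 0.16) in the deposited tables. Its peak had 15.6 and 13.1 with dTAG-13, against 11.5 and 10.9 with DMSO, in EBF1-dTAG_C. It had 12.4 and 13.7 with dTAG-13, against 10.4 and 9.55 with DMSO, in EBF1-dTAG_N. Its dTAG-13 summits thus stood above its DMSO summits in both lines, although neither fold was called. By rank within the lists the treatments overlapped in EBF1-dTAG_C, at the top 5.68% and 10.5% with dTAG-13, against 8.02% and 9.21% with DMSO. In EBF1-dTAG_N the ranks were 7.45% and 7.05% with dTAG-13, against 9.74% and 12.9% with DMSO.

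A further fall inside Ccnd3 passed in EBF1-dTAG_N, at chr17:47521492-47522262. In the authors' deposited tables the log2 fold change was -0.28 (adjusted p = 0.383) in EBF1-dTAG_C and -0.32 (adjusted p = 0.000163) in EBF1-dTAG_N, values of like size with different tests behind them. The rise with the smallest adjusted p was at chr17:47515541-47515778, with a log2 fold change of 1.13 (adjusted p = 0.337) in EBF1-dTAG_C and 1.31 (adjusted p = 8.84e-07) in EBF1-dTAG_N in the authors' deposited tables. In EBF1-dTAG_C it had a peak of 6.53 in 1 dTAG-13 list and none with DMSO. In EBF1-dTAG_N it had peaks of 5.32 and 4.82 with dTAG-13 and none with DMSO. Those EBF1-dTAG_N peaks ranked within the top 69.7% and 78.5% of their lists.

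At Ccnd2, a D cyclin gene that responds to growth factors, 0 of 11 regions fell or rose in EBF1-dTAG_C, and 0 fell and 4 rose of 10 in EBF1-dTAG_N in the authors' deposited tables. Of all regions 0.308% rose in EBF1-dTAG_C and 18.8% in EBF1-dTAG_N. The median log2 fold change at Ccnd2 was 0.21 in EBF1-dTAG_C and 0.43 in EBF1-dTAG_N. The 4 rises also passed after centring on the table median. The smallest adjusted p belonged to chr6:127236562-127236977, 84.6 kb outside the gene. Its peak had 15.8 and 13.5 with dTAG-13, against 10.9 and 14.4 with DMSO, in EBF1-dTAG_C, and the groups overlapped. In EBF1-dTAG_N it had 13.9 and 14.8 with dTAG-13, against 10.8 and 7.91 with DMSO, without overlap. The log2 fold change was 0.36 (adjusted p = 0.629) in EBF1-dTAG_C and 0.96 (adjusted p = 7.92e-10) in EBF1-dTAG_N in the authors' deposited tables.

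A pair of regions sits at the end of the Ccnd2 span with the higher coordinate, one inside and one outside the gene. The inner region, chr6:127151712-127151953, had peaks of 4.48 and 3.19 with dTAG-13, against 6.91 in 1 of the 2 DMSO lists, in EBF1-dTAG_C. In EBF1-dTAG_N it had 4.69 and 5.07 with dTAG-13 and no peak with DMSO. Its log2 fold change was 0.23 (adjusted p = 0.741) in EBF1-dTAG_C and 1.04 (adjusted p = 3.98e-05) in EBF1-dTAG_N in the authors' deposited tables. The lists thus separated the treatments in EBF1-dTAG_N, and in EBF1-dTAG_C the highest peak was a DMSO one. The EBF1-dTAG_N peaks ranked low, within the top 84.7% and 82.9% of their lists, so the lists alone show no gain there. The outer region, chr6:127152357-127152696, had 0.23 (adjusted p = 0.571) in EBF1-dTAG_C and 0.83 (adjusted p = 0.000336) in EBF1-dTAG_N. Its peaks overlapped between treatments in EBF1-dTAG_N, with 5.74 and 7.54 under dTAG-13, against 4.54 and 6.65 under DMSO. In the authors' deposited tables the mean abundance of the outer region was 5.28 log2 CPM in EBF1-dTAG_C and 3.46 in EBF1-dTAG_N. It was 596 bp wide in EBF1-dTAG_C and 340 bp in EBF1-dTAG_N, and the tables were normalised separately. The remaining rise, at chr6:127162837-127163211, had a log2 fold change of 0.61 (adjusted p = 0.594) in EBF1-dTAG_C and 1.04 (adjusted p = 0.000141) in EBF1-dTAG_N in those tables. Its summits overlapped between the treatments in both lines. They were at 26.7 and 12.0 with dTAG-13, against 18.4 and 25.6 with DMSO, in EBF1-dTAG_C. They were at 22.1 and 18.4 with dTAG-13, against 13.5 and 18.9 with DMSO, in EBF1-dTAG_N.

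Ccnd1, which encodes the paralogue more prominent outside the blood lineages, had 8 regions in EBF1-dTAG_C, with 1 fall and 0 rises, and 11 in EBF1-dTAG_N, with 2 falls and 1 rise, in the authors' deposited tables. Per length, the EBF1-dTAG_C regions of Ccnd1 had a median of 4.6 log2 CPM per kb in the authors' deposited table, those of Ccnd2 5.19 and those of Ccnd3 7.03, against 4.23 over the whole table. In EBF1-dTAG_N the medians were 3.75, 4.9 and 7.0, against 4.23, so the regions of Ccnd3 had the highest median of the paralogues in both lines. The sets are unlike, since all Ccnd3 regions lay inside the gene, while Ccnd1 and Ccnd2 also held regions far outside. The largest change of all member regions was at chr7:145037264-145037616, 97609 bp outside Ccnd1 and close to the 100 kb limit of assignment. It had a peak in none of the 4 dTAG-13 lists, against 15.0 and 15.2 in the DMSO lists of EBF1-dTAG_C and 18.8 and 17.6 in those of EBF1-dTAG_N. Its log2 fold change in the authors' deposited tables was -6.64 (adjusted p = 0.00016) in EBF1-dTAG_C and -4.55 (adjusted p = 5.14e-19) in EBF1-dTAG_N. With so little signal left under dTAG-13 the size of such a fitted fold depends on the authors' fit, and it is no bound. Being nearest to Ccnd1 says nothing of which gene this region acts on.

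The other Ccnd1 fall was inside the gene at chr7:144932415-144932673, and the gene LTO1 lies 1796 bp away from it. It had no peak with dTAG-13 in either line, against 10.5 in 1 DMSO list of EBF1-dTAG_C and 7.63 and 7.99 in the DMSO lists of EBF1-dTAG_N. The log2 fold change was -0.65 (adjusted p = 0.301) in EBF1-dTAG_C and -0.91 (adjusted p = 0.00185) in EBF1-dTAG_N in the authors' deposited tables. The rise was 1718 bp outside the gene at chr7:144941391-144941708, with 0.33 (adjusted p = 0.452) in EBF1-dTAG_C and 1.22 (adjusted p = 0.00217) in EBF1-dTAG_N. In EBF1-dTAG_C a peak was called in all 4 lists, at 12.4 and 13.5 with dTAG-13, against 13.5 and 11.0 with DMSO. In EBF1-dTAG_N the peaks were 6.54 and 6.25 with dTAG-13, and none was called with DMSO. These EBF1-dTAG_N peaks ranked low, within the top 76.1% and 79.1% of their lists. The EBF1-dTAG_C region nearest to a Ccnd1 end, 38 bp inside the gene, had no called change, at -0.13 (adjusted p = 0.854) in the authors' deposited table.

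Among the kinases, Cdk4 had a single region, chr10:127063176-127063722, which covers its start and the 4 E-boxes shown above. Its peak had 27.2 and 29.0 with dTAG-13, against 30.0 and 29.1 with DMSO, in EBF1-dTAG_C. It had 28.0 and 28.6 with dTAG-13, against 28.6 and 29.5 with DMSO, in EBF1-dTAG_N. The summits under dTAG-13 were no higher than those under DMSO. The log2 fold change was 0.13 (adjusted p = 0.568) in EBF1-dTAG_C and 0.24 (adjusted p = 0.000162) in EBF1-dTAG_N in the authors' deposited tables. After centring, the rise in EBF1-dTAG_N no longer passed (adjusted p = 0.412). Per kb of region this was the most accessible member start, at 8.33 log2 CPM per kb in EBF1-dTAG_C and 8.43 in EBF1-dTAG_N from the authors' deposited tables.

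Cdk6, the partner kinase that predominates in many blood cells, has a long span and held 16 regions in EBF1-dTAG_C, with 1 fall and 0 rises, and 19 in EBF1-dTAG_N, with 2 falls and 3 rises, in the authors' deposited tables. The fall common to both lines was inside the gene, 129.1 kb past the annotated start, at chr5:3472749-3473159. It had a peak of 5.56 in 1 of the 2 dTAG-13 lists of EBF1-dTAG_C, against 19.4 and 15.2 with DMSO. In EBF1-dTAG_N it had 7.07 and 10.7 with dTAG-13, against 25.9 and 21.1 with DMSO. The treatments did not overlap in either line. The fall in accessibility was a log2 fold change of -1.43 (adjusted p = 0.0377) in EBF1-dTAG_C and -2.32 (adjusted p = 3.71e-23) in EBF1-dTAG_N in the authors' deposited tables.

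A region further along Cdk6, at chr5:3501570-3501962, fell in EBF1-dTAG_N and stood at the edge of the threshold in EBF1-dTAG_C. The authors' deposited tables give it a log2 fold change of -1.12 (adjusted p = 0.0504) for EBF1-dTAG_C and -1.16 (adjusted p = 2.56e-10) for EBF1-dTAG_N. After centring the EBF1-dTAG_C value passed (adjusted p = 0.0323). Its peaks were in neither dTAG-13 list of EBF1-dTAG_C, against 11.1 and 12.7 with DMSO. In EBF1-dTAG_N they were in 1 dTAG-13 list at 5.69, against 12.8 and 11.9 with DMSO. The rise with the smallest adjusted p, at chr5:3494089-3494725, had 0.46 (adjusted p = 0.288) in EBF1-dTAG_C and 0.41 (adjusted p = 4.87e-06) in EBF1-dTAG_N in the authors' deposited tables. Its EBF1-dTAG_C peaks had 16.5 and 16.2 with dTAG-13, against 10.9 and 11.9 with DMSO, where the test did not pass. In EBF1-dTAG_N, where it passed, they had 12.1 and 13.3 with dTAG-13, against 11.8 and 11.8 with DMSO, a small margin. This EBF1-dTAG_N rise also passed after centring, and the gene's other two did not (adjusted p = 0.0548 and 0.307). The annotated Cdk6 start had 0.20 (adjusted p = 0.696) in EBF1-dTAG_C and 0.12 (adjusted p = 0.493) in EBF1-dTAG_N.

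**Figure D2:**
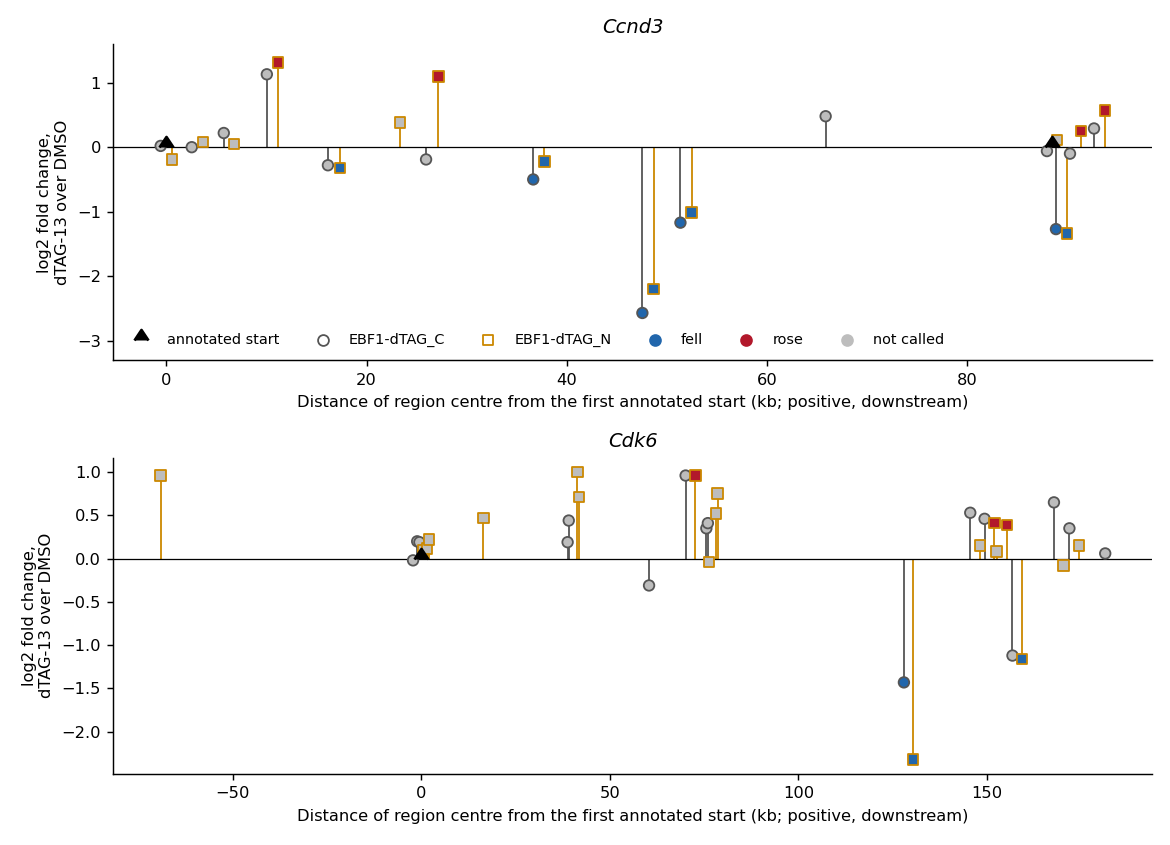
Regions of Ccnd3 (upper plot) and Cdk6 (lower plot) by the distance in kb of their centre from the first annotated start, with the deposited log2 fold change of dTAG-13 over DMSO on the vertical axis. EBF1-dTAG_C is shown as circles and EBF1-dTAG_N as squares, shifted slightly apart sideways, blue for fell, red for rose and grey for not called, and black triangles are annotated starts. The Ccnd3 falls common to both lines lie 37.2 to 89.4 kb past the first start and the Cdk6 one 129.1 kb past its start, while the regions at the starts have values between -0.19 and 0.20.

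Among the inhibitors, Cdkn1a had 7 regions in each line, with 1 fall and 0 rises in EBF1-dTAG_C and 1 fall and 2 rises in EBF1-dTAG_N in the authors' deposited tables. The fall was the same region in both lines, chr17:29071705-29072202, 19.0 kb before the first annotated start and 28581 bp from Srsf3, a splicing factor gene. Its peak had 7.62 and 7.43 with dTAG-13, against 14.4 and 11.8 with DMSO, in EBF1-dTAG_C. It had 11.1 and 9.24 with dTAG-13, against 17.2 and 17.1 with DMSO, in EBF1-dTAG_N. Both dTAG-13 libraries were lower than both DMSO libraries in each line. The accompanying log2 fold change was -1.24 (adjusted p = 0.00462) in EBF1-dTAG_C and -1.39 (adjusted p = 1.51e-30) in EBF1-dTAG_N in the authors' deposited tables.

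No region of either table lay over the first annotated Cdkn1a start. The region at the second start had 0.11 (adjusted p = 0.856) in EBF1-dTAG_C and 0.07 (adjusted p = 0.681) in EBF1-dTAG_N in the authors' deposited tables. The rise with the smaller adjusted p, at chr17:29095264-29095771, had 0.10 (adjusted p = 0.818) in EBF1-dTAG_C and 0.31 (adjusted p = 0.000895) in EBF1-dTAG_N. It did not pass after centring (adjusted p = 0.202), nor did the other EBF1-dTAG_N rise at this gene (adjusted p = 0.117). A region next to the fall before the first start had a log2 fold change of -0.46 (adjusted p = 0.0524) for EBF1-dTAG_N in the authors' deposited table and passed as a fall after centring (adjusted p = 0.00694).

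Cdkn1b, encoding p27, had 4 regions in each line, with 0 calls in EBF1-dTAG_C and 2 rises in EBF1-dTAG_N in the authors' deposited tables. Its start, at chr6:134920131-134920814, had a log2 fold change of 0.14 (adjusted p = 0.621) in EBF1-dTAG_C and 0.24 (adjusted p = 0.0077) in EBF1-dTAG_N. The region past the gene, at chr6:134928308-134929062, had 0.11 (adjusted p = 0.737) in EBF1-dTAG_C and 0.31 (adjusted p = 3.07e-05) in EBF1-dTAG_N. Neither EBF1-dTAG_N rise passed after centring (adjusted p = 0.587 at the start and 0.108 past the gene). Cdkn2c, encoding p18, had 4 regions in EBF1-dTAG_C and 2 in EBF1-dTAG_N, with 0 called in either. Its start region had 0.24 (adjusted p = 0.409) in EBF1-dTAG_C and 0.18 (adjusted p = 0.0795) in EBF1-dTAG_N in the authors' deposited tables. The peak there had 15.6 and 17.1 with dTAG-13, against 18.1 and 19.8 with DMSO, in EBF1-dTAG_C, and 13.4 and 16.8 with dTAG-13, against 18.5 and 17.4 with DMSO, in EBF1-dTAG_N. The dTAG-13 summits were the lower ones in both lines while the deposited folds were above 0.

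**Figure D3:**
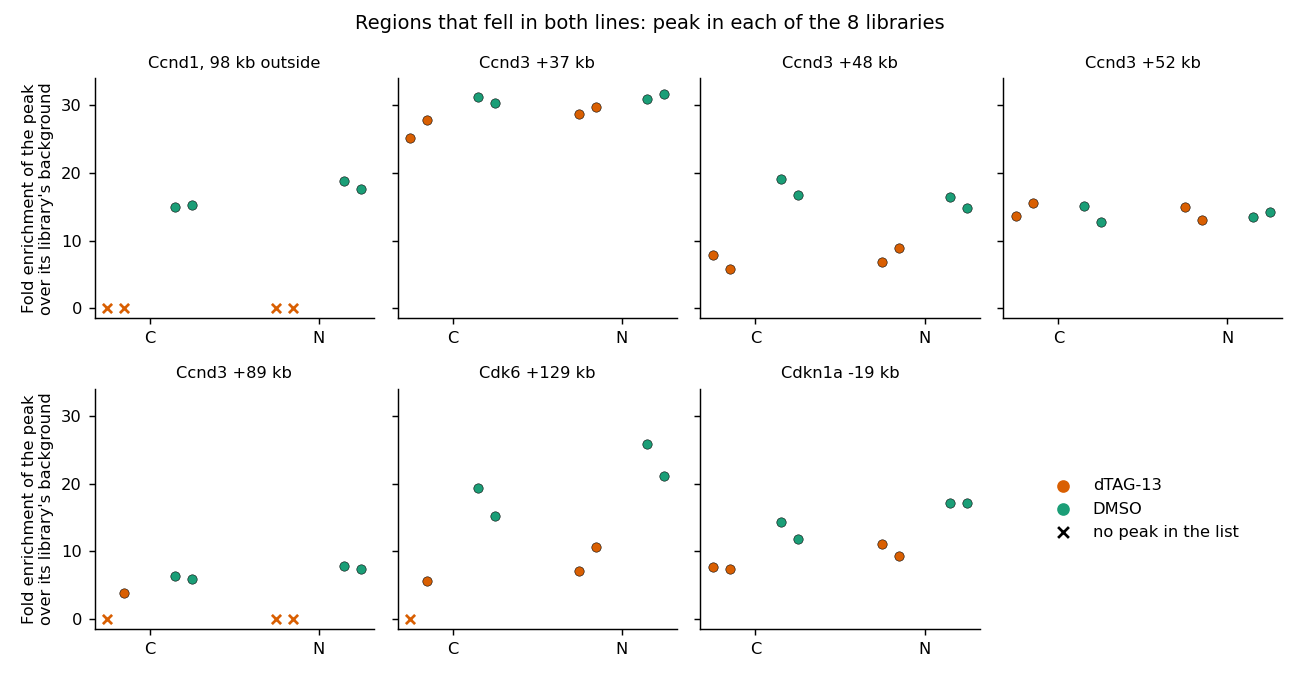
Fold enrichment over local background of the peak in each library, for the 7 member regions that fell in both lines, with dTAG-13 in orange left of DMSO in green, EBF1-dTAG_C marked C, EBF1-dTAG_N marked N, and a cross at 0 where a list has no peak. The treatments are apart in both lines except at the Ccnd3 region 51.9 kb past the first start, where the summits overlap. The ranks of that region's peaks within the lists do not overlap. The regions were chosen by deposited falls that come from the same libraries, so this separation is no independent support.

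Regions at starts and regions elsewhere were counted apart for the 6 genes with promoter windows, so without Ccnd1 and Ccnd2. Of the member regions over a promoter window (250 bases before to 50 after a start), 0 of 8 fell and 0 rose in EBF1-dTAG_C, and 0 fell and 2 rose of 7 in EBF1-dTAG_N. Elsewhere at these genes 6 of 38 fell and 0 rose in EBF1-dTAG_C, and 8 fell and 10 rose of 40 in EBF1-dTAG_N. For falls the whole of the authors' deposited tables had the same order, since in EBF1-dTAG_C 1.34% of promoter regions and 7.57% of others fell. In EBF1-dTAG_N the shares were 4.24% of promoter regions and 20.9% of others. Rises ran the other way in EBF1-dTAG_N, with 32.3% of promoter regions and 16.5% of others. These counts do not set the members' starts apart from other starts.

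The difference between EBF1-dTAG_C and EBF1-dTAG_N was tested region by region on the 56 members in both tables, with an approximate standard error from fold and F and adjustment over all 42801 paired regions. At an adjusted p under 0.05, 0 of the 56 differed, against 0 of 42801 overall (0.0%). With a normal approximation in place of 11.2 degrees of freedom, 67 pairs passed overall (0.157%) and 1 of them was a member. At an unadjusted p under 0.05 there were 5 members (8.93%), against 4.0% of all pairs. All 5 had the lower value in EBF1-dTAG_C. The design of the deposited test in EBF1-dTAG_N limits this comparison, since its errors do not carry the spread of single regions.

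The member that passed under the normal approximation (adjusted p = 0.0105) was inside Ccnd3 at chr17:47531403-47531931. Its log2 fold change was -0.19 (adjusted p = 0.662) in EBF1-dTAG_C and 1.10 (adjusted p = 2.19e-05) in EBF1-dTAG_N in the authors' deposited tables. The difference, EBF1-dTAG_C minus EBF1-dTAG_N, was -1.30 (approximate 95% interval -1.93 to -0.66, adjusted p = 0.994). Peaks stood at 10.4 and 13.2 with dTAG-13, against 11.5 and 10.0 with DMSO, in EBF1-dTAG_C, and at 8.61 and 8.24 with dTAG-13, against 6.74 and 5.66 with DMSO, in EBF1-dTAG_N. The treatments overlapped in EBF1-dTAG_C and not in EBF1-dTAG_N. Mean abundance in the deposited tables was 5.40 log2 CPM in EBF1-dTAG_C and 3.06 in EBF1-dTAG_N. The EBF1-dTAG_C region, chr17:47531258-47531943, was 686 bp wide and the EBF1-dTAG_N region 529 bp. The folds and abundances thus belong to unlike intervals, and the tables were normalised separately.

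The difference between the lines was also read at the 7 falls common to both. At the 4 Ccnd3 regions, in order along the gene, the differences were -0.27 (approximate 95% interval -0.57 to 0.02), -0.37 (-0.85 to 0.11), -0.16 (-0.53 to 0.21) and 0.07 (-0.47 to 0.61). At the Cdk6 region it was 0.89 (-0.06 to 1.84), and at the Cdkn1a region 0.15 (-0.40 to 0.71). At the distal Ccnd1 region it was -2.09 (-4.00 to -0.18), which did not pass after adjustment (adjusted p = 0.994). A difference that misses the threshold does not show that the lines respond alike.

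**Figure D4:**
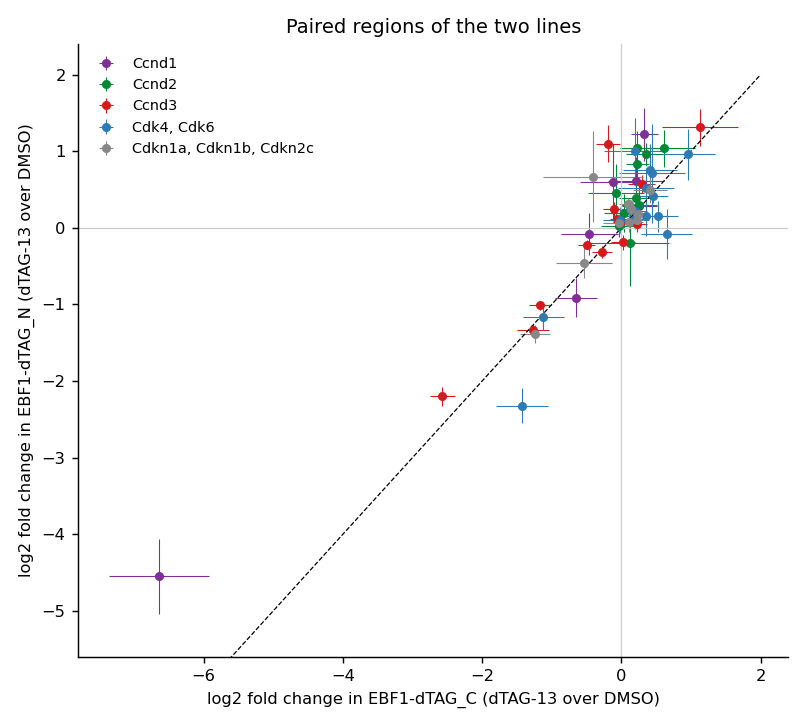
Deposited log2 fold change of dTAG-13 over DMSO for the 56 member regions in both tables, EBF1-dTAG_C on one axis and EBF1-dTAG_N on the other, with approximate standard errors as bars and the line of equality dashed. In 39 of the 56 (69.6%) the EBF1-dTAG_N value is the higher, against 61.0% of all pairs, and the median difference is -0.12, against -0.09 over all pairs.

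A peak that both DMSO lists held and both dTAG-13 lists lacked was found for 2 of 65 member regions (3.08%) in EBF1-dTAG_C, the distal Ccnd1 region and the Cdk6 region at the edge of the threshold, against 8.46% of all regions. It was found for 4 of 68 (5.88%) in EBF1-dTAG_N, at the distal and intragenic Ccnd1 falls, the Ccnd3 fall by the second start and a Cdk6 region 1.0 kb before its start, against 10.3% of all regions. This Cdk6 region was not called as changed, with a log2 fold change of 0.1 (adjusted p = 0.664) in the authors' deposited EBF1-dTAG_N table. Its DMSO peaks ranked low, within the top 87.2% and 82.4% of their lists, so their absence under dTAG-13 shows no loss of accessibility. The reverse, a peak with dTAG-13 alone, was found for 1 of 65 members (1.54%) in EBF1-dTAG_C, against 1.38% of all regions. In EBF1-dTAG_N it was found for 6 of 68 (8.82%), a larger share than the 3.53% of all regions, with no test of the difference. Without 1 library, where fewer lists have to match, the DMSO-alone regions numbered 2 to 7 for EBF1-dTAG_C and 4 to 9 for EBF1-dTAG_N, and the dTAG-13-alone regions 1 to 3 and 6 to 11. One region had a peak with dTAG-13 alone in both lines, towards the end of Ccnd3 (chr17:47598069-47598339). With dTAG-13 its peaks were 3.80 and 4.42 in the EBF1-dTAG_C lists, and 4.06 and 3.63 in the EBF1-dTAG_N lists, with none under DMSO in either line. These peaks ranked within the top 77.3% and 56.7% in EBF1-dTAG_C and the top 52.4% and 61.9% in EBF1-dTAG_N. The region's log2 fold change was 0.29 (adjusted p = 0.527) in EBF1-dTAG_C and 0.57 (adjusted p = 2.41e-05) in EBF1-dTAG_N in the authors' deposited tables.

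At the 100 kb limit the member regions just inside were the distal Ccnd1 region at 97.6 kb and a Ccnd2 region at 93.8 kb, with log2 fold changes of 0.25 in EBF1-dTAG_C and 0.30 in EBF1-dTAG_N for Ccnd2. The first region outside it, 102.0 kb from Ccnd2, had 0.60 in EBF1-dTAG_C and 0.61 in EBF1-dTAG_N in the authors' deposited tables. Further out the region 120.6 kb from Ccnd2 had 0.26 (adjusted p = 0.75) in EBF1-dTAG_C and 1.08 (adjusted p = 0.00756) in EBF1-dTAG_N, and the one at 137.0 kb had -0.73 (adjusted p = 0.428) in EBF1-dTAG_C and -1.60 (adjusted p = 0.0436) in EBF1-dTAG_N, in those tables.

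Other genes of the G1 to S transition were read from a list of 30, of which 29 had regions in each line. In EBF1-dTAG_C 5 of the 29 genes had a fallen region and 0 a risen one, against 16.3% and 1.0% of all genes measured. In EBF1-dTAG_N 10 had a fallen and 13 a risen region, against 34.2% and 41.2% of all genes. Of the list's regions 6.9% fell in EBF1-dTAG_C and 20.8% in EBF1-dTAG_N, against 6.62% and 18.5% of all regions. Overlapping regions of the tables that fell by at least 1 on the log2 scale in both lines numbered 4 at E2f8 and 1 each at Rb1, Wee1 and Tfdp1. These genes were named for their falls in both lines, and the share of all genes with such a region is not given here. Rb1, the substrate of the cyclin D kinases, had a region 5.33-fold lower (adjusted p = 0.00162) in EBF1-dTAG_C and 2.67-fold lower (adjusted p = 4.13e-07) in EBF1-dTAG_N in the authors' deposited tables, 14568 bp outside the gene. Of the 14 Rb1 regions of EBF1-dTAG_N, 4 fell, this one included, and 5 rose. E2f8, a repressor of the E2F family, had 4 of 11 regions fallen in EBF1-dTAG_C, with 0 risen, and in EBF1-dTAG_N 7 of 13 fallen, with 0 risen. Wee1, the kinase that holds back CDK1, had a distal region with log2 fold changes of -2.41 (adjusted p = 0.00225) in EBF1-dTAG_C and -1.73 (adjusted p = 3.82e-06) in EBF1-dTAG_N in those tables. Tfdp1, the dimer partner of E2F, had different regions with the smallest adjusted p in each line, 8.33-fold lower (adjusted p = 0.0167) in EBF1-dTAG_C and 5.76-fold lower (adjusted p = 4.58e-05) in EBF1-dTAG_N in those tables.

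By the shares of regions that fell and rose in each line, among 2802 genes with at least 5 regions in each table, the genes most like Ccnd2 were Blm and Apbb1ip, each at a distance of 0.0 over the 4 shares. Those most like Ccnd1 were Pitpnm2 (0.0169) and Diaph3 (0.0246), and those most like Ccnd3 were Kifc5b and Pigt (0.0399 each). Shares over so few regions per gene take few values, so an exact match shows no shared regulation. Ties were ordered by the closest number of regions and then by name, and the number of tied genes is not given here. Cells of other types were looked for by peaks within 1 kb of a gene end. Such peaks were in all 8 lists for 9 of 12 pro-B genes, 1 of 8 T cell genes (Cd3d), 0 of 7 myeloid genes and 0 of 5 erythroid genes. The other pro-B genes, Rag1, Rag2 and Dntt, had such a peak in 4, 3 and 0 lists. Of the other cell types Epor had one in 5 lists, Csf1r in 3, Cd3e and Lyz2 in 2 each and Klf1 in 1, while 6 T cell, 5 myeloid and 3 erythroid genes, Gata1 among them, had one in 0 lists.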

How the data were processed

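ATAC-seq, which reads open chromatin through Tn5 insertion, was analysed in 8 libraries from the files the authors deposited, grouped by line and treatment from the labels. Per the submitters' processing notes, the authors used edgeR 3.32.0, MACS2 2.2.7.1, deepTools 3.3.2, Bowtie2 2.3.5.1 and SAMtools 1.10 with the GRCm38 (mm10) build. How reads were filtered, shifted and scaled is not given in the sources used here. For each library the authors deposited a peak list, with a score, a fold enrichment (a ratio to local background) and −log10 p-values and q-values. For each line the authors deposited an edgeR table of dTAG-13 against DMSO, holding the log2 fold change, the mean log2 CPM, the score F and its p-value and adjusted p-value, with no value per library.

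Repeated rows (8 in EBF1-dTAG_C, 12 in EBF1-dTAG_N) were counted once. The direction was checked on the lists: 92.6% and 96.7% of regions with peaks in both DMSO lists alone had a negative fold. No standard error or n was attached to a region, and depth in reads is unknown. The approximate standard error of a fold was its size divided by the root of F. Regions were matched to peaks, and between tables, from 1 bp of overlap, and where several peaks overlapped a region the one with the highest −log10 q was used. The approximate test of the line difference was tested on simulated data: of 200 pairs changed by 3 on the log2 scale among 42801, 69.5% were recovered. Of the pairs called there, 2.11% were false. No member pair differed by as much as 3, the largest difference being -2.09 at the distal Ccnd1 region. How often smaller differences would be recovered is not known.

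The 8 genes and the lists were chosen with earlier results of these data known. By rule, the named regions were, for each gene and line, the called region with the smallest adjusted p in each direction and the region nearest to the start or, for Ccnd1 and Ccnd2, to a gene end. The regions that fell in both lines, those that changed in EBF1-dTAG_N alone at Ccnd1, Ccnd2, Ccnd3 and Cdk6 and the Ccnd3 region with the lowest p of the line difference were named after their values were seen. A motif search around region centres needs a genome and was made on the RefSeq promoter table instead. Alternatives were another threshold, a minimum fold, centred folds, a 20 kb limit, other peak cut-offs and overlaps, omission of a library and other error models. Python 3.11.15, pandas 2.3.3 and SciPy 1.17.1 were used.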

Additional observations from a re-analysis of the deposited data

How the results depend on the processing

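The number of member regions that fell was 5 to 8 in EBF1-dTAG_C (7 as reported) and 7 to 12 in EBF1-dTAG_N (10 as reported) over all alternatives, within 1.5 times of the reported number, and 0 rose in EBF1-dTAG_C under each. Of the 17 rises in EBF1-dTAG_N, 9 were counted with folds centred on the table median and 5 where a log2 change of 1 or more in size was asked for. Read against the EBF1-dTAG_C degrees of freedom 15 were counted. By region, 8 of the 27 EBF1-dTAG_N calls were lost on centring and 2 on the other degrees of freedom, and 0 of the 7 EBF1-dTAG_C calls were lost on centring. The number that differed between the lines was 1 with a normal approximation, against 0. With an equal number of best peaks per list, 2 member regions had dTAG-13-only peaks in EBF1-dTAG_C, against 1.

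Leaving out a library relaxes what a peak in one treatment alone requires. Replicate numbers are those of the sample titles; the peak names inside the lists of EBF1-dTAG_C dTAG-13 replicate 2 and DMSO replicate 1 carry other numbers. In EBF1-dTAG_C, dTAG-13-only regions then numbered 1 to 3, with the highest without dTAG-13 replicate 2 or DMSO replicate 2 and 2 without DMSO replicate 1. DMSO-only regions numbered 2 to 7, with 7 without DMSO replicate 1 and 6 without dTAG-13 replicate 2 or DMSO replicate 2. In EBF1-dTAG_N, dTAG-13-only regions numbered 6 to 11, with 11 without dTAG-13 replicate 1. DMSO-only regions numbered 4 to 9, with 9 without dTAG-13 replicate 2 and 7 without either DMSO replicate. No paired analysis was possible because the deposited tables hold no values per library.

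The deposited tables limit all counts: replicate spread at a region cannot be seen, and the EBF1-dTAG_N p-values rest on a spread pooled over regions. Assignment to the nearest gene is by distance alone.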
